A study of Mus musculus with 12 samples.

Results

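Accessibility at 9 genes that make and mark B cells was followed in ATAC-seq data of mouse bone marrow: Rag1, Rag2, Vpreb1, Igll1, Pax5, Ebf1, Cd79a, Cd79b and Ms4a1. Their regions were the consensus peaks whose centre lay inside one of the genes or within 15 kb of its ends on RefSeq positions (GRCm38), and a peak in reach of several went to the nearest. This gave 56 of the 75281 peaks in the table. The progenitor B genes held 7 of them, with 1 at Rag1 and 2 each at Rag2, Vpreb1 and Igll1. The other 49 lay at genes active through the lineage or in mature cells, with 11 at Pax5, 15 at Ebf1, 11 at Cd79a, 9 at Cd79b and 3 at Ms4a1.

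In ATAC-seq the Tn5 transposase cuts DNA that is not wrapped in nucleosomes, so the read count over a peak measures how open the chromatin is. The libraries came from NZO/HILtJ mice, an inbred strain that becomes obese and diabetic, with no other genotype or treatment named in the labels. There were 4 groups of 3 libraries: females and males aged 3 months, and females and males aged 18 months. Each library carried its own mouse number, given here as in the labels (BM-40 and the like), and was taken as 1 animal. Which open regions of B cell genes differ between young and old marrow was the question asked of them.

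B cells arise in the marrow from progenitors in which EBF1, acting with the E2A protein, and then PAX5 switch on and hold the B cell program. RAG1 and RAG2 together cut the immunoglobulin genes for V(D)J recombination, and VPREB1 and IGLL1 form the surrogate light chain that tests a new heavy chain in the pre-B receptor. CD79A and CD79B are the signalling chains of both the pre-B receptor and the mature B cell receptor, and Ms4a1 encodes CD20, a surface protein that appears as B cells mature.

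The labels called the tissue bone marrow, while their protocol text described sorting of CD3e and CD8 positive T cells. Of 14 T cell genes, Cd8b1, Thy1 and Bcl11b had no peak within 15 kb. Cd3e and Cd8a had no peak inside the gene, and their 2 and 1 peaks within 15 kb lay nearer to Cd3d and Rmnd5a. The summed level of the other 9 was 322 to 355 CPM at 18 months and 318 to 336 CPM at 3 months. CPM is the count scaled to a common library total with TMM factors. The erythroid genes summed to 1165 to 1348 CPM at 18 months and 1855 to 2284 CPM at 3 months, and the neutrophil and myeloid genes to 1513 to 1827 CPM and 1181 to 1666 CPM. Counts in peaks ranged from 7668099 to 12756647 per library. All 18-month libraries were sequenced in runs 14 (females) and 15 (males) and all 3-month libraries in runs 28, 29, 30 and 31, so age and run cannot be told apart, and neither can sex and run at 18 months. No run held both ages, so no value of the age difference within a run exists. In whole marrow, fewer B cells and less open chromatin per B cell cannot be told apart either.

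Promoter sequence was shown for the 4 progenitor genes, whose start peaks carry the comparison of young with old, and for Cd79a and Pax5, whose start peaks fell with age in males. Each line gives the 250 bases upstream of the RefSeq start (GRCm38.p6), 5′ to 3′ on the gene's own strand. Capitals mark the E-box CANNTG, the motif of E2A and related proteins, and the core CCCNNGGG of the EBF1 motif; both read the same on either strand.
Rag1 (chr2:101649533-101649782, minus strand): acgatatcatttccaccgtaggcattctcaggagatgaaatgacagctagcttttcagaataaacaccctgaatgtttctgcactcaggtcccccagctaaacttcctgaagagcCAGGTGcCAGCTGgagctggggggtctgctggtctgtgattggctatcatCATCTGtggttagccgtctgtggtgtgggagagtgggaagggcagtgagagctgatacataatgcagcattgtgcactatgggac
Rag2 (chr2:101624462-101624711, plus strand): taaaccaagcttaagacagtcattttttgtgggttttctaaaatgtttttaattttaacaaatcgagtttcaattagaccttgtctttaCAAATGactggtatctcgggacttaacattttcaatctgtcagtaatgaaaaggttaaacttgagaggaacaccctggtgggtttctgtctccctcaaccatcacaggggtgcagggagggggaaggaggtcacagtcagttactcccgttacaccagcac
Vpreb1 (chr16:16869256-16869505, minus strand): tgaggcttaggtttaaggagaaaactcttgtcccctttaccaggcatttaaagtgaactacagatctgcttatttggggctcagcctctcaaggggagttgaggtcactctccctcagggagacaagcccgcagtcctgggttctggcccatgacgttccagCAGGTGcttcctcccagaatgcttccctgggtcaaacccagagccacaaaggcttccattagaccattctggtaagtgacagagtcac
Igll1 (chr16:16863986-16864235, minus strand): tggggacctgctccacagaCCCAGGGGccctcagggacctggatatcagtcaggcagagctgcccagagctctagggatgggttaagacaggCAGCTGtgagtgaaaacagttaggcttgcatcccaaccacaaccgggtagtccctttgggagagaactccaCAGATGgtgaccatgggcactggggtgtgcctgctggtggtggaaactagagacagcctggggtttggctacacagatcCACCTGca
Cd79a (chr7:24897247-24897496, plus strand): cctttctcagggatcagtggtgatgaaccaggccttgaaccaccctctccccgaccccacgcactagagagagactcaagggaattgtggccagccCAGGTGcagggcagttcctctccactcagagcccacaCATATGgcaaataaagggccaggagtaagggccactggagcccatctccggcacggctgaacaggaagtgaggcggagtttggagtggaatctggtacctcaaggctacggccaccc
Pax5 (chr4:44710695-44710944, minus strand): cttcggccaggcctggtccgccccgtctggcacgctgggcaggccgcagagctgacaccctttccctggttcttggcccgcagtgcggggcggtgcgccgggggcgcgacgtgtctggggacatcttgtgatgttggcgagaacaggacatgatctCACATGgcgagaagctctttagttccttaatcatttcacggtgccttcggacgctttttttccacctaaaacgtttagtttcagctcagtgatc
Peaks covered all 250 bases at Rag1, Rag2, Vpreb1, Pax5 and Cd79a, and 237 of the 250 bases at Igll1. The E-box occurred 3 times at Rag1 and at Igll1, 2 times at Cd79a, and 1 time each at Rag2, Vpreb1 and Pax5. It is a common word: 66.2% of 32851 RefSeq promoters hold it in a window of 250 bases. The EBF1 core was found among these 6 windows at Igll1 alone, and 11.8% of all promoters hold it.

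Few of the 56 peaks were called by age. edgeR's quasi-likelihood test with age and sex, Benjamini-Hochberg adjusted over all 75164 tested peaks, called 3 peaks higher and 2 lower at 18 months. That is 8.93% of the 56, beside 21.0% of all tested peaks (9.43% higher, 11.6% lower). All 56 passed the filter on low counts. The median log2 fold change was -0.01 over the 56 peaks and 0.02 over all tested peaks, and the share called grows with the level of a peak. Of all tested peaks, 9.47%, 14.8%, 22.7% and 37.0% were called in the quartiles of mean level from the lowest to the highest. For the B cell peaks in the same quartiles the shares were 10.0% of 10, 18.8% of 16, 0 of 21 and 11.1% of 9.

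None of the 7 progenitor B peaks was called by age, and limma voom and DESeq2 called none of them either (21.1% and 20.4% of all tested peaks). At an unadjusted edgeR p under 0.05 there were 2, against 33.4% of all tested peaks. The median log2 fold change of the 7 was -0.04, and that of the 49 pan-B and mature B peaks -0.01. Of the 49, 5 were called (10.2%). All 5 lay in the transcription factor genes Pax5 and Ebf1, and none lay at Cd79a, Cd79b or Ms4a1. The plot of the age effect at every peak shows both groups spread about 0.

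**Figure D1:**
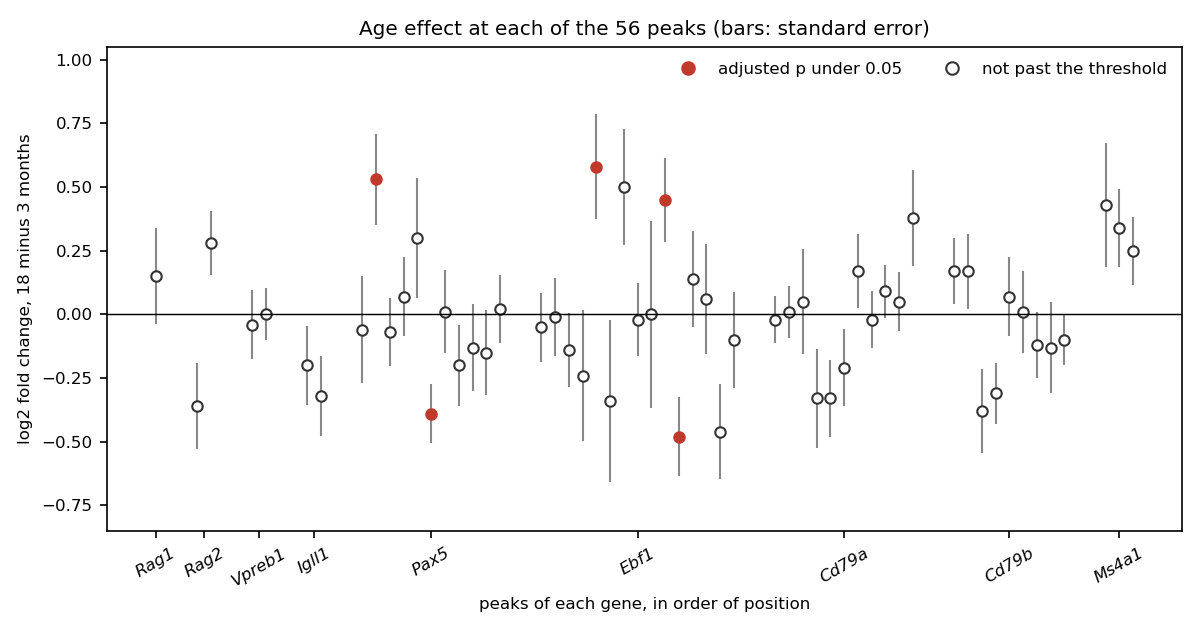
Log2 fold change in accessibility, 18 minus 3 months (vertical axis), at each of the 56 peaks, ordered by position within a gene (horizontal axis); points are edgeR estimates over 12 libraries, bars are standard errors, and filled red points have an adjusted p under 0.05. The 5 called peaks lie at Pax5 and Ebf1, 3 above and 2 below 0.

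Rag1, the recombinase subunit that carries the catalytic site, had a single peak, across its start (chr2:101649285-101649805). Its level was 6.72, 4.62 and 5.62 CPM in the 18-month females and 4.67, 4.80 and 5.52 CPM in the 18-month males. At 3 months it was 5.29, 2.82 and 4.75 CPM in females and 6.36, 6.68 and 3.19 CPM in males. The ages overlapped throughout, with a log2 fold change of 0.15 (SE 0.188, edgeR adjusted p = 0.632). Rag2, its partner, had a start peak (chr2:101624376-101625233) at 6.72, 5.74 and 7.98 CPM in old females and 6.78, 6.83 and 3.01 CPM in old males. The young libraries stood at 10.4, 7.34 and 5.39 CPM in females and 7.70, 9.18 and 7.79 CPM in males. Old male BM-40 was the lowest of the 12, and the estimate was -0.36 (SE 0.169, edgeR adjusted p = 0.125). The second Rag2 peak (chr2:101628598-101629344) lay inside Rag2 but within 1 kb of the start of the neighbouring gene Iftap. It ran from 11.9 to 14.3 CPM at 18 months and from 9.03 to 13.8 CPM at 3 months (log2 fold change 0.28, SE 0.125, edgeR adjusted p = 0.101).

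The surrogate light chain genes lie side by side on chromosome 16. The Vpreb1 start peak (chr16:16868686-16869547) ran from 7.25 to 10.2 CPM at 18 months, with a median of 8.84, and from 8.03 to 10.5 CPM at 3 months, with a median of 8.58. Its log2 fold change was -0.04 (SE 0.135, edgeR adjusted p = 0.885). The stronger second Vpreb1 peak lay at the start of Top3b, a topoisomerase gene, at 22.9 to 35.2 CPM in old and 24.8 to 30.9 CPM in young libraries (0.00, SE 0.102). The Igll1 start peak (chr16:16863999-16864528) was measured at 4.37, 5.34 and 6.80 CPM in old females and 7.14, 6.40 and 5.90 CPM in old males. In young marrow it was 7.47, 5.65 and 6.13 CPM in females and 6.47, 8.35 and 7.08 CPM in males. The estimate of -0.20 (SE 0.155, edgeR adjusted p = 0.393) was within the spread of the libraries. The other Igll1 peak, 1.45 kb upstream, had an estimate of -0.32 (SE 0.158, edgeR adjusted p = 0.154), with old male BM-40 again the lowest at 3.89 CPM. No start peak of a progenitor B gene separated the ages, as was so at most tested peaks: only 7.23% of them separated the ages.

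Pax5, the factor that commits cells to the B lineage, held 1 peak of each direction. Peak 6 inside the gene (chr4:44702979-44704897), 6.76 kb from the start, fell by 0.39 on the log2 scale (SE 0.116, edgeR adjusted p = 0.0132). Its levels were 19.8, 23.5 and 21.8 CPM in old females and 15.1, 17.9 and 11.5 CPM in old males. In young marrow they were 25.7, 24.8 and 22.8 CPM in females and 26.2, 24.1 and 18.6 CPM in males. The old males lay lowest, and the ages overlapped. Peak 2 (chr4:44667520-44667976), 42.9 kb into the gene, rose by 0.53 (SE 0.179, edgeR adjusted p = 0.0285). It stood at 6.80, 7.33 and 6.34 CPM in old females and 6.41, 6.08 and 4.01 CPM in old males, beside 4.98, 4.29 and 3.27 CPM in young females and 2.68, 5.11 and 5.22 CPM in young males. The Pax5 start peak (chr4:44710695-44711325) had an estimate of -0.15 (SE 0.167, edgeR adjusted p = 0.583).

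Ebf1, which acts with PAX5 and opens chromatin early in the lineage, held 15 peaks, the farthest 390 kb past the start. Peak 11 (chr11:44880946-44881557), 263 kb from the start, was the only one of the 56 whose ages did not overlap. It was 5.83, 5.18 and 5.08 CPM in old females and 5.04, 4.69 and 3.76 CPM in old males, while the young libraries held 6.64, 6.77 and 6.97 CPM in females and 6.81, 6.78 and 7.35 CPM in males. It fell by 0.48 (SE 0.156, edgeR adjusted p = 0.0227). A gap between all old and all young libraries was seen at 7.23% of tested peaks. Peak 5 (chr11:44624633-44624926), 6.68 kb from the start, rose by 0.58 (SE 0.207, edgeR adjusted p = 0.0386) from 2.34 to 3.49 CPM in young to 2.76 to 5.35 CPM in old marrow. Peak 10 (chr11:44808786-44809444), 191 kb from the start, rose by 0.45 (SE 0.165, edgeR adjusted p = 0.0425), from 3.24 to 6.90 CPM in young to 5.77 to 8.40 CPM in old libraries. The start peak of Ebf1 (chr11:44618264-44618506) was low, at 1.07 to 5.17 CPM in old and 1.95 to 4.59 CPM in young marrow (estimate -0.24, SE 0.258). Peak 8, 147 kb from the start, had the highest mean of the Ebf1 peaks. It ran from 7.02 to 17.7 CPM in old and 10.95 to 14.1 CPM in young libraries (estimate -0.02, SE 0.142).

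Fewer fits kept the calls of the 3 rises than those of the 2 falls when each of the 12 libraries was left out in turn. Ebf1 peak 11 lost its call once, without old male BM-40 (edgeR adjusted p = 0.0632), and Pax5 peak 6 without old male BM-40 (0.0672) or young male BM-251 (0.0542). Ebf1 peak 5 kept its call in 6 of 12 fits, Pax5 peak 2 in 5 and Ebf1 peak 10 in 4. Their adjusted p reached 0.107 without old male BM-38, 0.0932 without young male BM-251 and 0.15 without young male BM-251, in that order. The directions held in all of these fits. All 3 rises also lost their calls with offsets smoothed on mean abundance (adjusted p 0.0567 to 0.075) or on peak width (0.0825 to 0.134), with estimates of 0.40 to 0.50. Ebf1 peak 10 lost its call with DESeq2 too (adjusted p = 0.0516). Of the falls, Ebf1 peak 11 lost its call with scaling by total counts (-0.40, edgeR adjusted p = 0.0605) and Pax5 peak 6 with width offsets (-0.24, edgeR adjusted p = 0.132).

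The receptor chain genes and Ms4a1 had no peak called by age. The Cd79a start peak (chr7:24896851-24897607) ran from 6.08 to 12.4 CPM in old and from 7.29 to 14.6 CPM in young libraries (estimate -0.33, SE 0.152, edgeR adjusted p = 0.119). The peak with the highest CPM of the 56, at 75.2 to 105 CPM in old and 76.7 to 103 CPM in young marrow, was assigned to Cd79a but lay at the start of Rps19, a ribosomal protein gene. Its estimate was -0.02 with TMM scaling and 0.22 with offsets smoothed on mean abundance, where it was called. At Cd79b, peak 4 (chr11:106309610-106310714) came closest to the threshold, at 9.91 to 15.4 CPM in old and 15.1 to 19.0 CPM in young marrow (estimate -0.31, SE 0.119, edgeR adjusted p = 0.0588). The Cd79b peak of highest mean, peak 9, lay nearer to Scn4a. It ran from 23.2 to 33.1 CPM in old and 28.7 to 33.8 CPM in young libraries (estimate -0.10, SE 0.0997). Peaks 5, 6 and 7, at the ends of Cd79b, had estimates of 0.07 (SE 0.154), 0.01 (SE 0.162) and -0.12 (SE 0.131). The peak at an end of Ms4a1 (chr19:11265939-11266749) ran from 8.42 to 16.8 CPM in old and 8.59 to 10.6 CPM in young libraries (estimate 0.25, SE 0.134, edgeR adjusted p = 0.185). Ms4a1 peak 2, of smallest adjusted p, ran from 6.93 to 10.9 CPM in old and 5.175 to 8.37 CPM in young libraries. Its estimate was 0.34 (SE 0.154, edgeR adjusted p = 0.107). Per kb of peak, the start peaks of the 7 genes with a known start had mean levels from 8.24 CPM per kb at Rag2 to 13.8 at Cd79a.

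Counts summed over all peaks of a gene gave 1 value for each. The sums were scaled to their own total with their own TMM factors, so their CPM and estimates differ from those of peaks. Rag1, whose sum held only its start peak, was at 0.15 as a peak and 0.22 as a sum. For these sums a peak counted for the protein-coding gene that holds it or lies nearest, so the 12 peaks nearer to Rps19, Arhgef1, Iftap, Top3b and other genes were left out. Ms4a1 alone was called, among 15447 genes of which 37.2% were called (18.4% higher, 18.8% lower). Its summed level was 26.7, 34.5 and 29.03 CPM in old females and 23.3, 26.4 and 24.0 CPM in old males. The young libraries held 20.3, 20.4 and 20.4 CPM in females and 22.2, 21.9 and 21.1 CPM in males. Every old library lay above every young one, as at 14.5% of genes in either direction. It rose by 0.38 (SE 0.0936, edgeR adjusted p = 0.0029), and by 0.30 to 0.41 with any 1 library left out.

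The sums of the other 8 were not called. Log2 fold changes were 0.22 for Rag1 (SE 0.194), -0.28 for Rag2 (SE 0.183), 0.03 for Vpreb1 (SE 0.129) and -0.18 for Igll1 (SE 0.109). They were -0.02 for Pax5 (SE 0.0682), 0.05 for Ebf1 (SE 0.0716), -0.09 for Cd79a (SE 0.0761) and -0.10 for Cd79b (SE 0.0619). The smallest edgeR adjusted p among these 8 was 0.193, at Igll1. Summed over the 4 progenitor genes, old libraries held 32.5 to 43.0 CPM and young ones 35.1 to 45.1 CPM. At Pax5 and Ebf1 the lowest library was old male BM-40, with 78.2 and 75.6 CPM, and it also had the lowest depth of the 12.

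**Figure D2:**
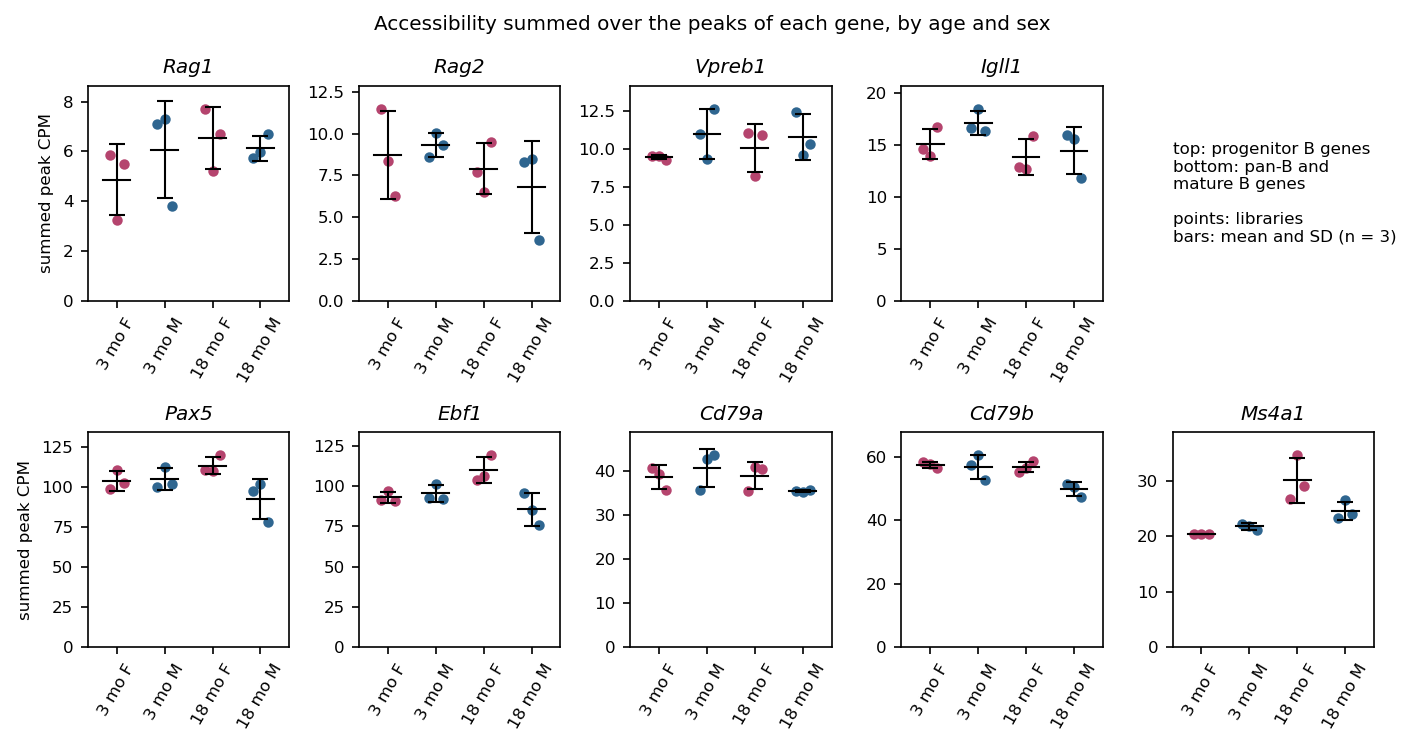
Summed peak CPM (vertical axis, from 0) of each of the 9 genes in the 4 groups of age and sex; points are libraries, bars are mean and SD (n = 3). Ms4a1 is the gene in which every 18-month library, 23.3 to 34.5 CPM, lies above every 3-month library, 20.3 to 22.2 CPM.

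Females and males were then taken apart in 1 model of the 4 group means. In females 3 of the 56 peaks rose and 0 fell, where 11.9% of all tested peaks were called (5.70% higher, 6.20% lower). In males 0 rose and 6 fell, where 11.4% were called (3.21% higher, 8.18% lower). The median log2 fold change of the 56 was 0.13 in females and -0.14 in males, and over all tested peaks 0.01 and 0.03. With scaling by total counts these medians of the 56 were 0.17 and -0.02. With a library left out, the female median ran from 0.09 to 0.16 and the male median from -0.26 to -0.08.

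The 6 peaks that fell in males included the starts of Cd79a and Pax5. At the Cd79a start peak the old males held 8.33, 6.08 and 7.65 CPM and the young males 13.5, 14.6 and 11.0 CPM. The females held 9.64, 12.4 and 11.4 CPM when old and 12.2, 11.1 and 7.29 CPM when young. The peak fell by 0.82 in males (SE 0.195, edgeR adjusted p = 0.00282), and the estimate in females was 0.13 (SE 0.187, edgeR adjusted p = 0.709). The Pax5 start peak held 5.22, 3.84 and 5.90 CPM in old males and 6.92, 10.0 and 6.82 CPM in young males, and fell by 0.67 (SE 0.224, edgeR adjusted p = 0.0387). In females it held 9.48, 8.21 and 8.43 CPM when old and 5.60, 7.79 and 7.60 CPM when young, an estimate of 0.32 (SE 0.21).

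Pax5 peak 6 fell by 0.62 in males (edgeR adjusted p = 0.00567) and Cd79b peak 4 by 0.55 (0.0167). The remaining pair, named here after their values were seen, were Cd79b peak 3 (chr11:106308188-106308627), which fell by 0.81 (edgeR adjusted p = 0.0116), and Ebf1 peak 14 (chr11:44950386-44950758), which fell by 0.91 (0.0155). Only the Cd79a start kept its call in all 12 fits with a library left out. Among the other 5 the highest adjusted p was 0.235, for the Pax5 start without young male BM-253. The count of 6 became 2 without old male BM-39 or young male BM-251, 3 without old male BM-40 or young male BM-253, and 12 without young male BM-252.

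The 3 peaks that rose in females were the Ms4a1 end peak, Pax5 peak 2 and the Rag2 peak at the Iftap start. The Ms4a1 peak held 12.6, 16.8 and 12.5 CPM in old and 10.6, 8.81 and 9.93 CPM in young females, and rose by 0.52 (SE 0.176, edgeR adjusted p = 0.0424). In males it held 8.42, 9.71 and 9.03 CPM when old and 8.59, 10.4 and 9.03 CPM when young, an estimate of -0.05. Pax5 peak 2 rose by 0.71 in females (edgeR adjusted p = 0.0496) and the Iftap start peak by 0.50 (0.0478). All 3 calls stood near the threshold. The count became 0 without old female BM-35 or BM-36, or without young female BM-245 or BM-244, and 1 without young female BM-243 or old male BM-38 or BM-39.

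**Figure D3:**
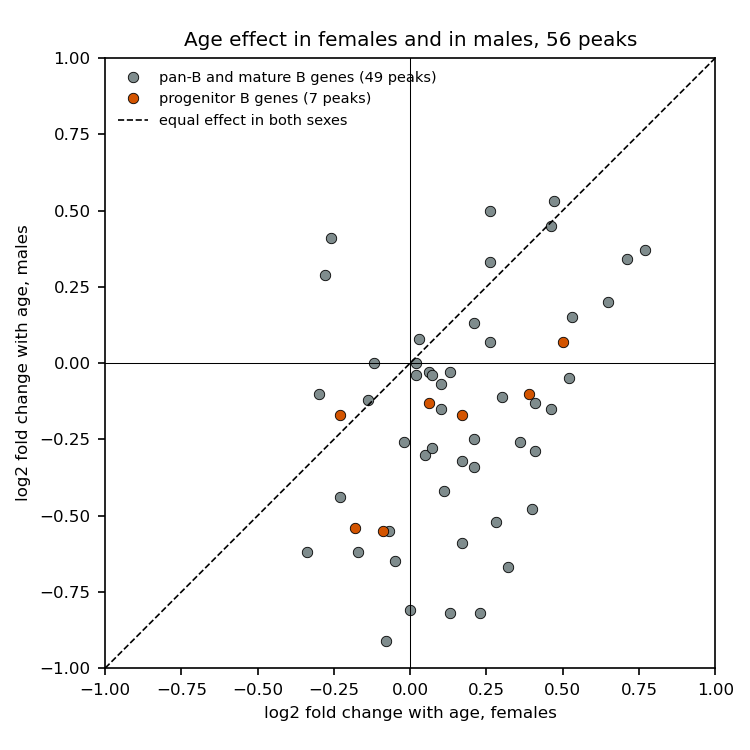
Log2 fold change with age in females (horizontal axis) and in males (vertical axis) at the 56 peaks; each point is a peak, orange for progenitor B genes and grey for pan-B and mature B genes, and the dashed line marks equal effects. 46 of the 56 peaks lie below the line.

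The difference between the sexes was tested as the age by sex interaction, and no B cell peak passed it. edgeR called 0 of 56 after adjustment (0.00532% of all tested peaks), limma voom called 0 (0.00133%), and DESeq2 called 0 of the 18 peaks for which it gave an adjusted p (0.0579%). At an unadjusted p under 0.05 edgeR gave 17 of 56, of which 16 had the lower effect in males, limma voom gave 13 and DESeq2 15. Over all tested peaks edgeR gave 9.99% at that level, with 6.27% lower in males. The edgeR count of 17 became 8 with scaling by total counts (7239 of all tested peaks). It became 8 without young male BM-253 (5088 of all) or young female BM-244 (5367), and 23 without young male BM-252 (13068). The smallest edgeR adjusted p, 0.241, was shared by the Cd79a start peak (difference -0.95, SE 0.27) and Ebf1 peak 8, 147 kb into the gene (-0.88, SE 0.253). Without young male BM-252, edgeR called 4 of the 56 and 2.15% of all peaks. Those 4 were the Cd79a start, the Pax5 start, Ebf1 peak 8 and the Rps19 start peak, with adjusted p of 0.0238, 0.0451, 0.0256 and 0.0229.

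The estimates nonetheless leaned one way. The effect was lower in males than in females at 46 of 56 peaks (82.1%), beside 51.0% of all tested peaks, and the median difference was -0.36 beside -0.01. At 27 of 56 (48.2%) the estimate was above 0 in females and below 0 in males, as at 16.0% of all peaks, and 3 of 56 showed the opposite. The lean of all peaks depends on their level: 40.9%, 42.9%, 49.8% and 70.5% had the lower effect in males in quartiles from the lowest to the highest level. The B cell peaks in these quartiles gave 50.0% of 10, 81.2% of 16, 90.5% of 21 and 100% of 9. The median difference was -0.36 for the 7 progenitor peaks and -0.36 for the 49 others. Peaks near each other share reads of the same cells and are not independent.

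Old males were also sequenced less deeply, at 7668099 to 10365528 counts in peaks, than old females at 10706402 to 12756647, and in another run. The neutrophil and myeloid genes summed to 1729 to 1827 CPM in old males and 1513 to 1591 CPM in old females, with 1304 to 1666 CPM in young males and 1181 to 1254 CPM in young females. The erythroid genes summed to 1200 to 1348 CPM in old males and 1165 to 1273 CPM in old females. The part of depth, run and other marrow cells in the result was not tested. Removing old male BM-40, the library of lowest depth, left the median at -0.30 with 45 of 56 peaks below 0. The other old males, at 8892542 and 10365528 counts, still had fewer counts than any old female and shared run 15. This removal therefore does not separate depth or run from sex. Over all the scalings, tools and left-out libraries the median stayed between -0.30 and -0.40.

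For summed counts the difference was below 0 at 9 of 9 genes, against 49.2% of all genes, and its median was -0.28. Other B lineage lists leaned the same way: 11 of 12 recombination and end joining genes (91.7%, median -0.24), 13 of 15 receptor signalling genes (86.7%, median -0.11), 20 of 25 pan-B and mature B genes (80.0%, median -0.23) and 10 of 15 pro-B and pre-B genes (66.7%, median -0.09). The lean was not limited to B lineage lists: the difference was below 0 at 5 of 7 stem and progenitor genes (71.4%, median -0.23), 9 of 14 neutrophil and myeloid genes (64.3%, median -0.10) and 5 of 8 plasma cell genes (62.5%, median -0.14). It was below 0 at 6 of 14 erythroid genes (42.9%, median 0.14), 3 of 9 T cell genes (33.3%, median 0.19) and 2 of 7 NK cell genes (28.6%, median 0.08). No gene was called after adjustment among the 9 (0.00% of all genes), nor by limma voom. At an unadjusted edgeR p under 0.05 there were 3 of 9, against 12.6% of all genes: Ebf1 (-0.39, SE 0.118), Pax5 (-0.30, SE 0.12) and Ms4a1 (-0.39, SE 0.173). Their edgeR adjusted p-values were 0.265, 0.327 and 0.368. In females alone Ebf1 rose by 0.24 (edgeR adjusted p = 0.0342) and Ms4a1 by 0.56 (0.00105), where 25.9% of genes were called. In males none of the 9 was called, Ms4a1 being at 0.18, where 23.8% of genes were, and 1 of 9 was below an unadjusted p of 0.05, as were 36.8% of genes. Summed over Pax5, Ebf1, Cd79a, Cd79b and Ms4a1, the old females held 332 to 367 CPM and the old males 261 to 304 CPM. Young females held 306 to 325 CPM and young males 308 to 339 CPM. Old males lay below every young library, and old females lay above every young female. These gaps were named after the values were seen, and the share of genes that show such gaps was not counted. Pax5 and Ebf1 had the highest levels of these genes and weighed most in the sum.

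Along Pax5 and Ebf1 the estimates differed in sign between peaks. Most of them were not called, and a difference between peaks was not tested. Near the Pax5 start, males fell at the start peak and at peak 6. The estimates in males at the other peaks near it were -0.07 (2.97 kb upstream), -0.12 (1.38 kb), -0.59 (4.57 kb) and -0.03 (5.39 kb). None of these was called. At 30.2 kb and 42.9 kb the estimates of both sexes were above 0. Between these, at 37.7 kb and at the peak next to it, the estimates were 0.36 and 0.17 in females and -0.26 and -0.32 in males, and at 46.1 kb they were -0.12 in females and 0.00 in males. Along Ebf1 the peaks at 127 kb, 191 kb and 6.68 kb had estimates above 0 in both sexes, and those at 116 kb, 263 kb and 332 kb had estimates below 0 in both. In females the estimates at 116 kb and 332 kb were -0.05 (SE 0.44) and -0.08 (SE 0.243). At 8 of the 15 Ebf1 peaks the estimate was above 0 in females and below 0 in males.

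**Figure D4:**
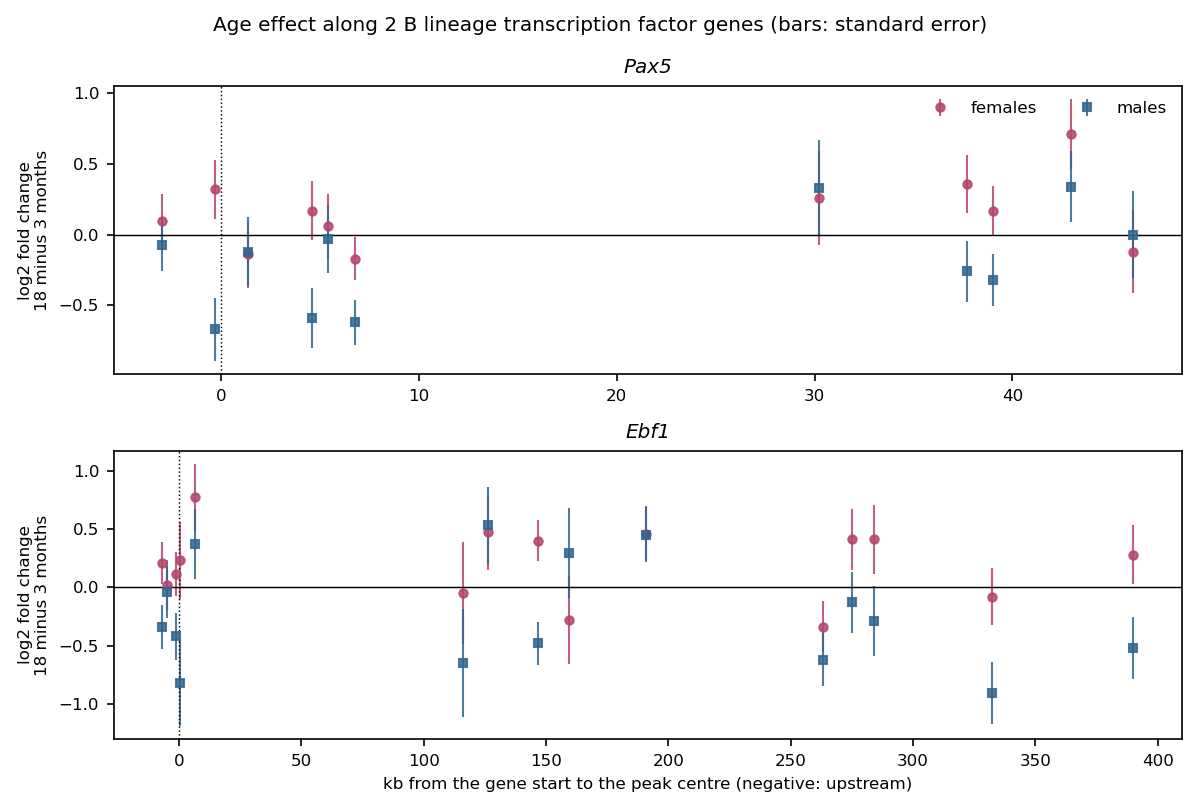
Log2 fold change with age (vertical axis) at the peaks of Pax5 (top) and Ebf1 (bottom) against the distance of the peak centre from the gene start in kb (horizontal axis); circles are females, squares are males, bars are standard errors. The 2 sexes coincide at 191 kb in Ebf1, at 0.46 and 0.45, and lie apart at the Pax5 start, at 0.32 and -0.67.

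Other B lineage genes were read from lists by summed counts, beside 37.2% called and a median of 0.01 over all genes. Of 15 measured pro-B and pre-B genes, 1 rose and 5 fell, with a median of -0.08. Cecr2, a chromatin factor gene, fell by 0.50 (edgeR adjusted p = 1.24e-06), Sox4, a transcription factor of early progenitors, by 0.41 (0.000142), and Tcf3, which encodes E2A, by 0.24 (9.52e-05). The other members called were named after their values were seen: Vpreb3 and Il7r, the receptor for the cytokine that sustains pro-B cells, fell by 0.27 and 0.33 (edgeR adjusted p = 0.00255 and 0.00401). Erg, a transcription factor of blood stem cells and early progenitors, rose by 0.20 (edgeR adjusted p = 0.000785), with 221.1 to 247.5 CPM in old and 197.1 to 221.0 CPM in young libraries. Dntt, the nucleotide-adding enzyme of V(D)J joining, was at -0.13 (edgeR adjusted p = 0.128).

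Of 25 pan-B and mature B genes, 7 rose and 1 fell, with a median of 0.09. Cd74, the invariant chain of antigen presentation, rose by 0.59 (edgeR adjusted p = 1.57e-06), Cd37, a tetraspanin of mature B cells, by 0.42 (0.000402), and Cxcr5, the receptor that guides B cells to follicles, by 0.38 (7.39e-05). Among 15 genes of B cell receptor signalling 6 rose and 1 fell, with Vav1 at 0.30, Pik3ap1 at 0.27 and Dapp1 at -0.24 having the smallest edgeR adjusted p. Of 12 recombination and end joining genes 3 rose and 4 fell, and their median was -0.14. Xrcc5 and Xrcc6, which encode the Ku80 and Ku70 subunits of the DNA end binding complex, went in opposite directions, at 0.37 and -0.26, and Hmgb1, a DNA bending cofactor of RAG cutting, fell by 0.34. Both shares of genes called on the pro-B and the recombination lists, 6 of 15 and 7 of 12, stand beside that background of 37.2%.

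**Figure D5:**
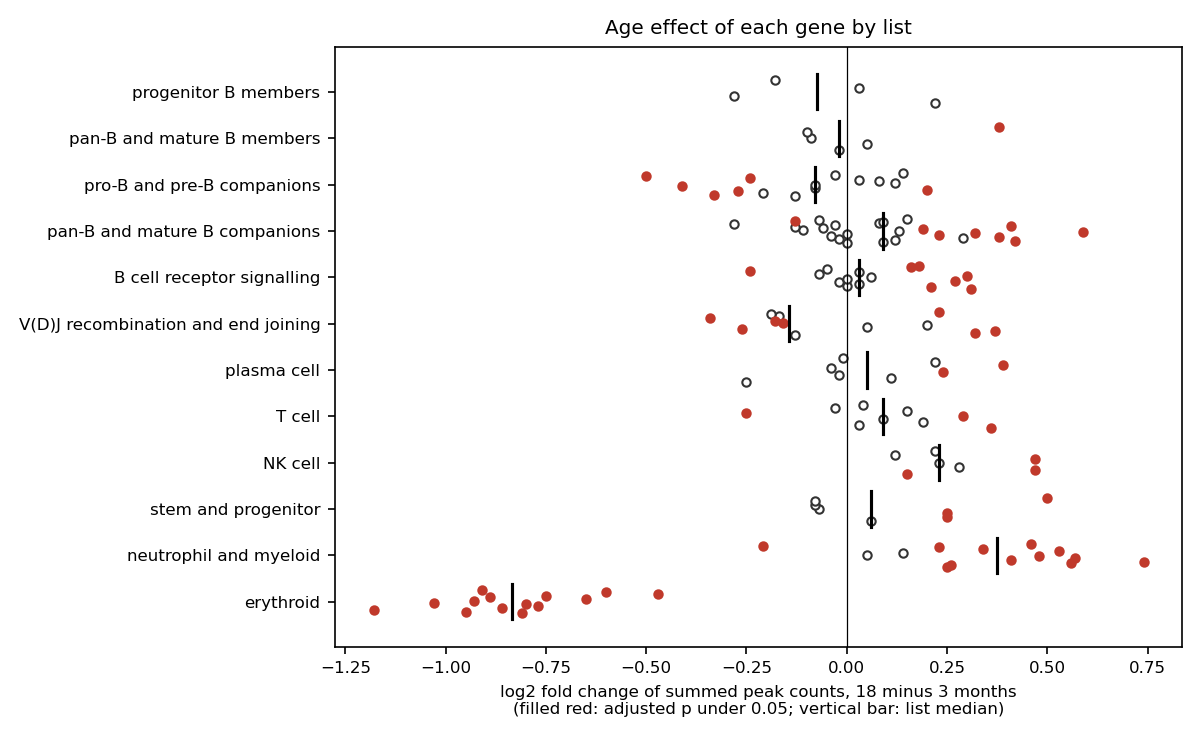
Log2 fold change of summed peak counts, 18 minus 3 months (horizontal axis), of each measured gene, by list (vertical axis); filled red points have an edgeR adjusted p under 0.05 and vertical bars are list medians. The B lineage medians lie between -0.14 and 0.09, the erythroid median at -0.83 and the myeloid median at 0.38.

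Erythroid and myeloid genes moved at the same time. All 14 measured erythroid genes fell (median -0.83), and of 14 neutrophil and myeloid genes 11 rose and 1 fell (median 0.38), where 37.2% of all genes were called by age. The shares called in the lists of the other marrow cells were below or near that background. Of 8 plasma cell genes 2 rose and 0 fell, with 308 to 355 CPM in old and 298 to 327 CPM in young libraries. Of 9 measured T cell genes 2 rose and 1 fell, and of 7 stem and progenitor genes 3 rose and 0 fell. Of 7 NK cell genes 3 rose and 0 fell, at 309 to 336 CPM in old and 251.9 to 315 CPM in young libraries. Many genes on the B lineage lists, such as Cd37, Cd74, Syk and Vav1, are also used by other blood cells. Their part in the result was not tested.

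The 5 genes whose summed log2 level followed the mean of the 9 most closely over the 12 libraries were Fam160a1 (Pearson r = 0.88), Sla (0.87), Cenpa (0.84), Acad8 (0.83) and Rassf3 (0.83), out of 15438. Fam160a1 was low, at 0.304 to 4.10 CPM in old libraries. Median r was 0.29 over the pro-B and pre-B list, 0.27 over the pan-B and mature B list, 0.23 over the recombination and end joining list and 0.16 over the receptor signalling list. It was 0.20 over the stem and progenitor list, 0.15 over the plasma cell list, 0.07 over the erythroid list, 0.01 over the neutrophil and myeloid list, -0.04 over the NK cell list, -0.11 over the T cell list and 0.00 over all genes. All these values share libraries and depth, and they are given as a description.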

How the data were processed

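Per the labels, bone marrow of 12 mice was assayed by ATAC-seq from 50000 cells a library, amplified by PCR with no molecular identifiers mentioned. The authors deposited raw read counts over 75281 consensus peaks. Trimmomatic, BWA, MACS2, DiffBind, edgeR and the build mm10 are named in the submitters' processing notes without versions or roles. How duplicates and the cut-site shift were handled is not given in the sources used here. The smallest count was 1, and the smallest in a B cell peak was 5.

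Gene positions and promoters came from RefSeq (GRCm38.p6). Cd79b and Ms4a1 had no promoter entry, so either gene end was used. Tests covered peaks over 1 CPM in 2 or more libraries and used edgeR 4.0.16 (R 4.3.3, TMM), age and sex additive, or 4 group means for within-sex effects and the interaction. Adjusted p-values under 0.05 were called, and estimates not called are given as values. Alternatives used DESeq2 1.42.0, limma voom 3.58.1, other scalings, windows of 5 and 30 kb, and libraries left out. The edgeR age fit was tested on simulated data and missed many of the smaller differences put into single peaks. The simulated data for the interaction held no difference, so its power was not measured. The other fits were not tested in this way. A count of 3 equals 0.235 to 0.391 CPM, for counting error only.

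For each gene the peaks at the start (or end), of highest mean and of smallest adjusted p were described, and 3 genes per list. The genes and lists were chosen with earlier results of these data known. Replicate numbers are mouse numbers, and 0 pairs of libraries were identical.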

Additional observations from a re-analysis of the deposited data

Results flagged for a closer look

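Levels of the 56 B cell peaks and 9 gene sums were checked in 130 sets of 6 libraries of an age for a value far from the other 5; chance marks about 1 in 20 such sets. In all 3 were marked. Cd79b peak 3 had its highest 18-month value, 11.4 CPM, in female BM-36, while the other 5 held 4.48 to 7.05 CPM. The Igll1 peak 1.45 kb upstream of its start had its lowest 18-month value, 3.888 CPM, in male BM-40, while the other 5 held 5.86 to 6.88 CPM. The Vpreb1 peak at the Top3b start had its lowest 3-month value, 24.84 CPM, in female BM-243, while the other 5 held 28.7 to 30.9 CPM.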

How the results depend on the processing

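No paired analysis was possible because no mouse number was shared between groups. Of the planned counts over the 56 peaks, those higher at 18 months (3) became 5 with scaling by total counts, 0 with offsets smoothed on peak width and 0 in male libraries only. Those lower (2) became 1 with total counts, 0 in females only, 5 in males only and 4 with windows of 30 kb. The progenitor count (0) became 1 with total counts, 1 in females only and 2 with 30 kb. The pan-B and mature count (5) became 2 with width offsets and 3 in females only. Genes called by sums (1) became 2 with abundance offsets, 2 in females only and 0 in males only. The counts within a sex were put through these alternatives after seeing the data: the 3 that rose in females became 1 with width offsets, and the 6 that fell in males became 4 with total counts and 8 with abundance offsets. With each library left out, the counts ran from 0 to 4 higher, 0 to 5 lower, 0 to 1 progenitor, 1 to 6 pan-B and mature, 0 to 3 rising in females, 2 to 12 falling in males and 0 to 4 for the interaction.

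Signs turned only in estimates that were not called in the chosen fit. In females alone they became 0.23 (Ebf1 peak 4), 0.40 (Ebf1 peak 8), -0.26, 0.05 and 0.07 (Cd79b peaks 5, 7 and 9), 0.06 (Vpreb1 peak 1), 0.32 (Pax5 peak 10), 0.21 and 0.13 (Cd79a peaks 1 and 5), and 0.13 and 0.01 for the Pax5 and Cd79a sums. In males alone they became -0.16 (Vpreb1 peak 2), -0.04 (Ms4a1 peak 3), -0.09 (Rag1 peak 1), and -0.02 and -0.15 for the Vpreb1 and Ebf1 sums. With total counts they became 0.05 (Ebf1 peak 8), 0.04 (Vpreb1 peak 1), 0.06 (Cd79a peak 1) and 0.01 (Pax5 sum). With abundance offsets they became -0.04 and 0.03 (Cd79b peaks 6 and 9), 0.22 (Cd79a peak 1), -0.09 (Vpreb1 sum) and 0.03 (Pax5 sum). With width offsets they became 0.02 (Ebf1 peak 8), -0.08 and 0.09 (Cd79b peaks 6 and 9) and 0.19 (Cd79a peak 1). Without the sex covariate Ebf1 peak 8 was 0.01, and with DESeq2 Vpreb1 peak 2 was -0.01. With a library left out, estimates that crossed 0 ran from -0.15 to 0.09 (Ebf1 peak 8), -0.03 to 0.13 and -0.06 to 0.10 (Cd79b peaks 5 and 6), -0.08 to 0.01 and -0.06 to 0.06 (Vpreb1 peaks 1 and 2), -0.07 to 0.04 (Cd79a peak 1), -0.01 to 0.09 (Vpreb1 sum), -0.06 to 0.04 (Pax5 sum) and 0.00 to 0.10 (Ebf1 sum). The cause was not tested.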
